A study of Mus musculus with 2 samples.

Results

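Chemokines and their receptors were followed across the peaks of histone H3 trimethylated at lysine 27 (H3K27me3). The genes were taken as the protein-coding genes of the GENCODE mouse annotation whose symbols begin with Ccl, Cxcl, Ccr or Cxcr and a number, together with Cx3cl1, Cx3cr1, Xcl1, Xcr1 and Pf4. This name rule gave 57 of 21911 protein-coding genes, of which 38 encode ligands and 19 encode receptors. The rule itself used no measured value, but the genes were chosen with earlier results of these data known. The mark was mapped by ChIP-seq (chromatin immunoprecipitation with sequencing) in the MEL line, an immortalised mouse erythroleukaemia line that the labels compare with the human K562 line. Its 2 biological replicates form 1 group, with no treatment, no other antibody and no second cell type. Age and health state of the source are labelled unknown. Whether the replicates were grown apart is not stated, and part of their spread may be technical.

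Chemokines are small secreted proteins that draw leukocytes along a gradient, and their receptors are G protein-coupled receptors on the surface of the responding cells. Many ligand genes, and several receptor genes, arose by local duplication and still stand in rows on the chromosome. H3K27me3 is laid down by the Polycomb repressive complex PRC2 and is found over genes held silent in a given cell type, among them many genes of other lineages.

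The authors deposited a list of peaks for each replicate, called the own lists here, and a replicated list. The replicated list holds peaks that the authors kept after comparing the calls of both replicates with a call on the pooled reads. On chromosomes 1 to 19, X and Y the replicated list held 38298 peaks over 13.0 Mb, with a median width of 278 bp. The list of replicate 1 held 70901 peaks over 16.1 Mb, and that of replicate 2 held 106995 over 23.9 Mb. The lists carry no read counts, so the depth is unknown, and the mark may be present at a gene where no peak was called. The replicated list was made from both replicates' calls, and 1 control served both. A peak found in all 3 lists is therefore not counted as separate support. Of 14 genes of the red cell lineage, 1 carried a replicated peak within 1 kb of its start, against 3.0% of all protein-coding genes. This was Slc4a1, which encodes the band 3 anion exchanger, with 410 bp. Peaks are so rare at starts that a count over 14 genes cannot check the label of the line.

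Peaks lay at a minority of the chemokine and receptor genes, and those genes differed widely in how much was covered. Within 1 kb of the start, taken as the outermost annotated 5′ end, 9 of the 57 had a replicated peak (15.8%), against 3.0% of all protein-coding genes. They were the ligand genes Ccl6, Ccl3, Ccl4, Cxcl1 and Cxcl9 and the receptor genes Ccr7, Ccr6, Ccr9 and Xcr1. Several of them are neighbours, so the 9 genes stand for 6 separate loci. In the list of replicate 1 the count was 13 of 57, against 4.46% of all genes, and in that of replicate 2 it was 11 of 57, against 6.28%. In both own lists 10 of the genes had a peak at the start, 3 had one in replicate 1 alone and 1 in replicate 2 alone. Of all 21911 genes these numbers were 689, 289 and 686.

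The count over a wider window followed the same order. Within 5 kb, 15 of the 57 genes (26.3%) had a replicated peak, against 10.4% of all genes. The own lists of replicate 1 and replicate 2 each gave 23 of 57, against 15.7% and 19.8% of all genes in the same lists. Inside the gene body the difference was smaller. There 14 of the 57 genes had a replicated peak, against 11.5% of all genes. The own lists gave 18 of 57 in each replicate, against 16.4% of all genes in replicate 1 and 20.4% in replicate 2. Chemokine and receptor genes are short, with a median length of 4741 bp against 17433 bp over all genes, so their bodies offer fewer bases for a peak to fall on.

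Measured in bases, the genes averaged 453 bp of replicated peaks within 5 kb of the start, against 90.7 bp over all genes, and the median was 0 bp in both sets. The mean share of the gene body covered was 3.36% in the replicated list, with 2.93% in replicate 1 and 4.20% in replicate 2, against 0.693%, 0.799% and 1.16% over all genes in those lists. A few genes carried most of it. Ccl4, Ccr9, Ccr7 and Ccl6 together held 62.2% of the 25798 bp covered near the starts, 50.5% in replicate 1 and 48.9% in replicate 2. Without these 4 the others averaged 184 bp. The nearest replicated peak lay at a median of 37.8 kb from the start, against 80.3 kb over all genes.

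**Figure D1:**
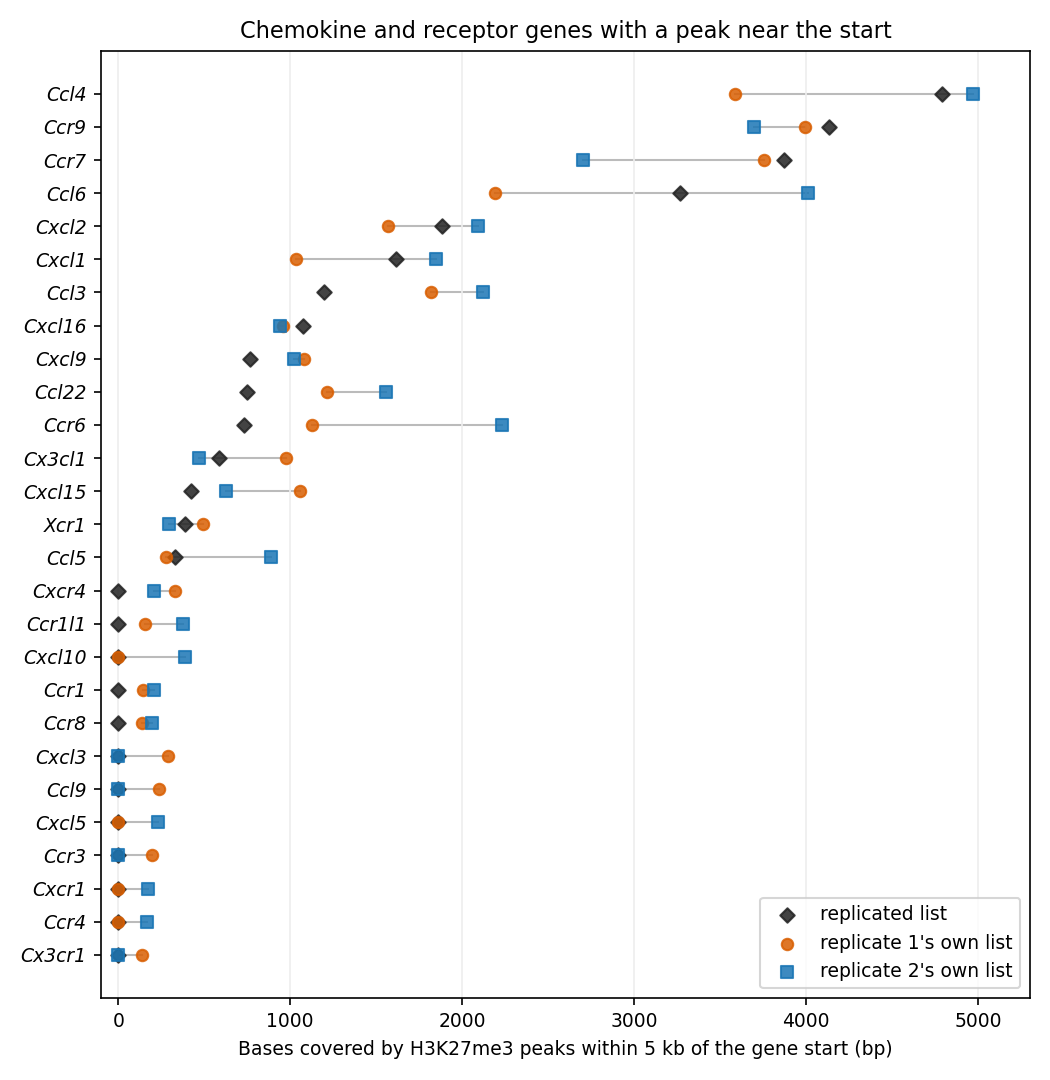
Bases covered by H3K27me3 peaks within 5 kb of the gene start (x axis, bp) for each chemokine and receptor gene with a peak there in at least 1 list (rows), in the replicated list (diamonds) and the own lists of replicate 1 (circles) and replicate 2 (squares), with a line joining the 2 replicates. Ccl4, Ccr9, Ccr7 and Ccl6 stand at the top with 2189 bp or more in every list, and the genes below Ccl5 are at 0 bp in the replicated list.

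Along the gene, the share of bases in replicated peaks, averaged over the 57 genes, was higher within 4 kb of the start than further out. This average rests on few genes. Only 15 of the 57 had a replicated peak within 5 kb, and Ccl4, Ccr9, Ccr7 and Ccl6 held 62.2% of the bases covered there. Ccr9 is counted at its outermost start, where the gene Slc6a20a also starts. In the 1 kb bin after the start, peaks covered 5.22% of the bases of these genes in the replicated list, with 5.23% in replicate 1 and 4.87% in replicate 2. Over all genes the same bin had 0.617%, 0.725% and 1.02%, the lowest value of their profile. The replicated list reached its highest value of 6.36% in the bin from 2 to 3 kb after the start, against 0.892% over all genes. At 9 to 10 kb before the start the replicated list had 1.57% over the 57 genes and 1.33% over all genes, and replicate 2 had 3.79% and 2.15%. At 9 to 10 kb after it the replicated list had 1.71% over the 57 genes and 0.859% over all genes.

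**Figure D2:**
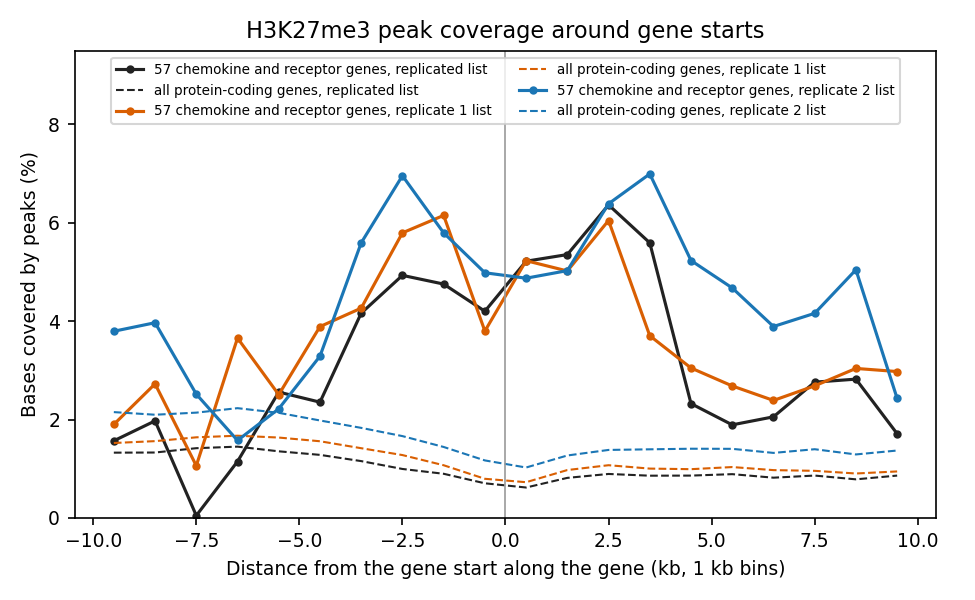
Share of bases covered by peaks (y axis, %) in 1 kb bins along the gene (x axis, kb from the start, with negative values upstream) for the 57 chemokine and receptor genes (solid lines with points) and for all protein-coding genes (dashed lines), in the replicated list and the own list of each replicate. The solid lines run between 2% and 7% from 5 kb upstream to 4 kb downstream, and the dashed lines dip at the start.

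The starts of Ccl6 and Ccr6 and the outermost start of Ccr9 lay inside a replicated peak, and the start of Ccl4 lay 8 bp from one. In the own list of replicate 2 the start of Ccl6 lay 17 bp from a peak. The sequences of the promoters of Ccl6 and Ccr6 are shown to place the edge of the peak, and that of Ccl12 is shown beside them as a ligand promoter in a cluster with no peak. They are the RefSeq promoters on GRCm38.p6, 250 bases before to 50 bases after the start, 5′ to 3′ on the strand of the gene, and capitals mark the bases inside a replicated peak. The peak takes in 136 bases of the Ccl6 promoter (chr11:83593038-83593337, minus strand) and 143 bases of the Ccr6 promoter (chr17:8235793-8236092, plus strand), in both cases the bases around the start itself. No base of the Ccl12 promoter (chr11:82101595-82101894, plus strand) is covered.
Ccl6: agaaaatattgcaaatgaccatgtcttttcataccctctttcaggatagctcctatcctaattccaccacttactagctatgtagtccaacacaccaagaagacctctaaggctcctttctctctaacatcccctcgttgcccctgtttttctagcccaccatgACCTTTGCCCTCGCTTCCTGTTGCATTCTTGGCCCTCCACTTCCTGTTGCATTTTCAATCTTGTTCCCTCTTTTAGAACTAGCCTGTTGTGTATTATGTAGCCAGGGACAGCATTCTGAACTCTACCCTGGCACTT
Ccr6: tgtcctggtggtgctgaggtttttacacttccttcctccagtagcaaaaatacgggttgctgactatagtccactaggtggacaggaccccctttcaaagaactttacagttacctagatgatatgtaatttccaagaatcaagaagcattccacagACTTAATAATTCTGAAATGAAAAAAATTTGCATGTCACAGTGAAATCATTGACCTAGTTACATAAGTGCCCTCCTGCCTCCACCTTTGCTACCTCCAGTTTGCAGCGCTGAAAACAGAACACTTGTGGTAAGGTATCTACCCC
Ccl12: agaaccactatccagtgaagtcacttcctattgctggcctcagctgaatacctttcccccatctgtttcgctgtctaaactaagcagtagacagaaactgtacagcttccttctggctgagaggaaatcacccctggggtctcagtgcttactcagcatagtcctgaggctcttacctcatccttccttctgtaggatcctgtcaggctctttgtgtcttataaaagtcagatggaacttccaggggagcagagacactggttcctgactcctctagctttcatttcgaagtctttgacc
Upstream of Ccl4 the widest peak spans 1386 bp (chr11:83660684-83662069). Its middle 300 bases (chr11:83661227-83661526, plus strand), all of them inside the peak, hold 1 CG and have a GC content of 50.3%.
Ccl4 upstream peak: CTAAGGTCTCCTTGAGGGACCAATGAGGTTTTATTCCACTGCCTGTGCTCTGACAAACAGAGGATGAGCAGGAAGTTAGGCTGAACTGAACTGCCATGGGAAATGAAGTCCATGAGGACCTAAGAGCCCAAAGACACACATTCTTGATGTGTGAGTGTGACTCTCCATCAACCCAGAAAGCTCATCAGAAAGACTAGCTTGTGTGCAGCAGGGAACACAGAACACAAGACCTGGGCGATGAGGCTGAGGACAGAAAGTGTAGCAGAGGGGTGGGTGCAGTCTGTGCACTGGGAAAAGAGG

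These stretches are poor in CG. RefSeq promoters were found for 43 of the 57 genes, and they held a median of 4 CG each with a GC content of 50.3%, against 14 CG and 57% over 16522 promoters of all protein-coding genes. The 11 of them with a replicated peak within 5 kb had a median of 4 CG, and the 32 without one had 3.5. Ccl4, Ccr7, Cxcl16 and Ccl5 also had such a peak, but no RefSeq promoter was found for them, so they are left out. The Ccl6, Ccr6 and Ccl12 promoters held 2 CG each. The motif GGGANNTTC, a core of sites bound by NF-κB proteins, was searched on both strands of these windows. It stood in 8 of the 43 (18.6%), against 3.78% of all promoters. The 8 genes were Cxcl1, Cxcl2, Cxcl3, Cxcl9, Cxcl10, Cxcr2, Ccr3 and Ccl1. It stood in 3 of the 11 promoters with a replicated peak within 5 kb and in 5 of the 32 without. A match is a string of letters and not a bound site.

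Among the ligand genes, 11 of 38 carried a replicated peak within 5 kb and 9 of 38 in the gene body, against 10.4% and 11.5% of all genes. Ccl4, also named MIP-1β and known to attract T cells and monocytes, had the most, with 4787 bp within 5 kb in the replicated list, 3584 bp in replicate 1 and 4968 bp in replicate 2. The replicated peaks stood mainly upstream, with 3284 bp before the start and 1503 bp after it, and only 235 bp lay in the gene, all in introns. Within 1 kb of the start the replicates stood apart, at 431 bp in replicate 1 and 1076 bp in replicate 2, beside 1070 bp in the replicated list. When peaks at most 3 kb apart were joined, they formed a domain of 16152 bp over Ccl4 (chr11:83657835-83673986), of which 48.8% was covered in the replicated list.

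Ccl6, a rodent CC chemokine that acts through Ccr1, had 3266 bp within 5 kb in the replicated list, 2189 bp in replicate 1 and 4013 bp in replicate 2. Its replicated peaks ran across the start, with 1667 bp upstream and 1598 bp downstream. Replicated peaks covered 30.7% of the gene body, which was 14.0% in replicate 1 and 46.4% in replicate 2. The gene was thus covered in both own lists, but over unequal shares. Ccl3, also named MIP-1α and a ligand of Ccr1, had 1195 bp within 5 kb, 1819 bp in replicate 1 and 2123 bp in replicate 2. Its body was covered over 15.9% in the replicated list and 17.7% in replicate 2, and replicate 1 held no peak in it.

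The neutrophil-attracting CXC ligands Cxcl1 and Cxcl2, which act through Cxcr2, were covered mainly after the start. Cxcl1 had 1618 bp within 5 kb in the replicated list, 1034 bp in replicate 1 and 1847 bp in replicate 2. Its body was covered over 48.1% in the replicated list, the highest share of the 57 genes, with 25.2% in replicate 1 and 41.3% in replicate 2, and all of the 902 bp covered in it lay in exons. Cxcl2 had 1885 bp, 1568 bp and 2092 bp within 5 kb in these lists. All of the replicated ones lay after the start, none reached the 1 kb around it, and replicate 2 had 581 bp before the start. Both peaks of Cxcl2 form a domain of 1953 bp that runs past the end of the gene (chr5:90905578-90907530).

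Other ligand genes had less. Cxcl9, an interferon-induced ligand of Cxcr3, had 767 bp within 5 kb in the replicated list, 1082 bp in replicate 1 and 1022 bp in replicate 2, and a peak within 1 kb of the start in all 3. Ccl22, a ligand of Ccr4, had 748 bp, 1215 bp and 1558 bp, with none within 1 kb of the start. The replicated ones all lay downstream, and the own lists added 522 bp upstream in replicate 1 and 477 bp in replicate 2. Cx3cl1, a membrane-bound chemokine that also acts in adhesion, had 586 bp, 976 bp and 471 bp, all upstream. Of these 3 genes Cx3cl1 alone held peaks on 1 side of the start in each list. Cxcl16, a membrane-bound ligand of Cxcr6, had 1072 bp, 959 bp and 938 bp, all upstream. The replicated ones lay over the neighbouring gene Zmynd15, so which gene they belong to cannot be told apart. Cxcl15, which recruits neutrophils in the mouse lung, had 423 bp, 1057 bp and 628 bp. Ccl5, also named RANTES and known to attract T cells, had 330 bp, 280 bp and 890 bp. The replicated ones stood at and past its 3′ end, and both own lists also held peaks inside the gene.

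Among the receptor genes, a replicated peak stood within 1 kb of the start at 4 of 19, within 5 kb at the same 4, and in the gene body at 5 of 19, against 3.0%, 10.4% and 11.5% of all genes. The count within 5 kb depended on the list, with 10 of 19 in each own list, against 15.7% of all genes in replicate 1 and 19.8% in replicate 2. Ccr7, which guides lymphocytes and dendritic cells to lymph nodes, stands outside any cluster of the family on chromosome 11. It had 3869 bp within 5 kb in the replicated list, 3757 bp in replicate 1 and 2703 bp in replicate 2. Its peaks stood at a distance on either side, with 203 bp of replicated peaks within 1 kb of the start, and all 1565 bp inside the gene lay in introns. The joined domain measured 9736 bp (chr11:99151641-99161376), with 52.2% covered.

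Ccr6, the receptor of Ccl20 on lymphocytes and dendritic cells, had 734 bp within 5 kb in the replicated list, 1125 bp in replicate 1 and 2233 bp in replicate 2, with the start inside a peak of 318 bp. Xcr1, the receptor of cross-presenting dendritic cells for Xcl1, had 386 bp, 495 bp and 294 bp, and its replicated peak is 1 peak in an intron. That peak overlapped 377 bp of peaks in replicate 1 and 0 bp in replicate 2, whose own 154 bp within 1 kb of the start lay elsewhere.

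Ccr9, the receptor of Ccl25 in the thymus and gut, needs its start stated. The annotated gene begins at chr9:123678439, at the start of the amino acid transporter gene Slc6a20a, whereas the RefSeq start lies 88.8 kb further in. At the outermost start Ccr9 had 4132 bp within 5 kb in the replicated list, 3995 bp in replicate 1 and 3699 bp in replicate 2. At the RefSeq start it had 826 bp, 835 bp and 1018 bp within 5 kb, and 203 bp, 360 bp and 148 bp within 1 kb. A peak was thus present at either start, but most of what is counted for Ccr9 stands around the start of Slc6a20a. The peak with the highest −log10 q at any of the 57 genes, 5.82, is the one just upstream of the outermost start.

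Of the 57 genes, 16 had a replicated peak within 5 kb or in the body, against 15.6% of all genes. A further 13 had one there in another list alone, and 28 had none in any list. Of all genes 30.4% had one in at least 1 list. The 13 were Cxcr1, Cxcr4, Cxcr5, Cx3cr1, Ccr1, Ccr1l1, Ccr3, Ccr4, Ccr8, Cxcl3, Cxcl5, Cxcl10 and Ccl9. Their largest value within 5 kb was 386 bp, for Cxcl10 in replicate 2. Cxcl3, Cxcl15, Cxcl2 and Cx3cr1 had a peak within 1 kb of the start in the list of replicate 1, of 148, 316, 140 and 140 bp. Among these 4 Cxcl15 alone had one in replicate 2 also, of 160 bp. Ccl5 had 123 bp there in replicate 2 alone. The 28 included Pf4, the platelet factor of megakaryocytes, and Cxcl12, the ligand that holds blood stem cells in the bone marrow. They also took in the ligands Ccl19, Ccl21a, Ccl25, Ccl27a, Ccl28, Cxcl13, Cxcl14 and Cxcl17, the receptors Cxcr2, Cxcr3, Cxcr6, Ccr2 and Ccr10, and Ccl20, Xcl1, Ccl17, Ccl24 and Ccl26. Ccl21b and Ccl27b, near-identical copies of Ccl21a and Ccl27a, were also among them, and reads shared between copies could be lost or split. The rest of the 28 were the 6 genes from Ccl2 to Ccl1 on chromosome 11.

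By their q-values the peaks at these genes were close to the list as a whole. Of 81 replicated peaks within 5 kb or in a body, 8 reached a −log10 q of 2 (9.88%), against 10.9% of all replicated peaks, and 57 of the 81 overlapped a peak in both own lists. With peaks of −log10 q of 2 or more only, 1 of the 57 genes, Ccr9, kept a peak within 1 kb of the start, against 0.589% of all genes. Within 5 kb there were 5, Ccr9, Cxcl16, Ccl6, Ccl4 and Ccr7 (8.77%), against 2.28% of all genes. At Ccr9 these stronger peaks lay around the outermost start, and at Cxcl16 upstream, over Zmynd15.

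The counts differed by chromosome. Replicated peaks covered 1.86% of chromosome 11, on which 14 of the 57 genes lie, and 0.815% of chromosome 9. Of the 14 genes 6 had a replicated peak within 5 kb, against 20.7% of all genes on chromosome 11, and 7 had one in replicate 1 and 6 in replicate 2, against 27.3% and 30.2%. On chromosome 9 it was 2 of 12, against 12.2% of all genes there. The own lists gave more on chromosome 9, with 7 of 12 in replicate 1 and 6 of 12 in replicate 2, against 18.0% and 23.1%. Away from chromosome 11 it was 9 of 43 (20.9%), against 9.51% of all genes off that chromosome, and 16 had one in replicate 1 and 17 in replicate 2, against 14.8% and 18.9%. Neighbouring genes within 500 kb of each other were grouped, which put 41 of the 57 genes into 10 clusters, and 5 of the clusters held a gene with a replicated peak within 5 kb.

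The CC ligand genes of chromosome 11 form a pair of clusters with opposite values. From Ccl5 to Ccl4 (chr11:83525778-83664683, 138906 bp, holding Ccl5, Ccl9, Ccl6, Ccl3 and Ccl4) peaks covered 14.2% in the replicated list, with 14.4% in replicate 1 and 18.3% in replicate 2, against 1.86%, 2.05% and 2.68% of chromosome 11. Windows of the same length tiled every 10 kb along the chromosome were covered as much or more in 315 of 12195 cases (2.58%), and 54.2% of the windows held no replicated peak. Tiled windows overlap, and no test was attached to this share. Of the bases covered in the cluster, 11.1% lay in the bodies of its 5 genes. Those bodies are short, at 4741, 5718, 5206, 1512 and 2100 bp from Ccl5 to Ccl4, and make up a small part of the 138906 bp too.

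Most of the covered bases there stood between genes, as does most of the cluster itself. The stretch between Ccl6 and Ccl3 is 54756 bp long and was covered over 24.4% in the replicated list, with 25.7% in replicate 1 and 27.2% in replicate 2. It holds the longest joined domain of the cluster, 22522 bp without a protein-coding gene (chr11:83615023-83637544), of which 43.7%, 39.7% and 46.2% were covered in these lists. Between Ccl3 and Ccl4 the share was 28.9%, 28.4% and 36.2%. The mark thinned out on the side of Ccl5. The 42400 bp between Ccl5 and Ccl9 had no replicated peak, with 0.792% in replicate 1 and 2.54% in replicate 2, and Ccl9, a rodent ligand of Ccr1, had 237 bp within 5 kb in replicate 1 alone.

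From Ccl2 to Ccl1 (chr11:82035571-82305690, 270120 bp) no list held a peak. The cluster takes in Ccl2, Ccl7, Ccl12 and Ccl8, which attract monocytes, Ccl11, the eosinophil-attracting eotaxin, and Ccl1, a ligand of Ccr8. The nearest replicated peaks stood 1138.2 kb before it and 402 kb after it. Of windows of this length on chromosome 11, 41.9% held no replicated peak, so an empty stretch of this size is common there. Ccl1 is annotated over 129034 bp, and its RefSeq start lies 126 kb inside that span, where the lists were empty too. Between the clusters, from Ccl1 to Ccl5, 2.45% was covered in the replicated list.

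**Figure D3:**
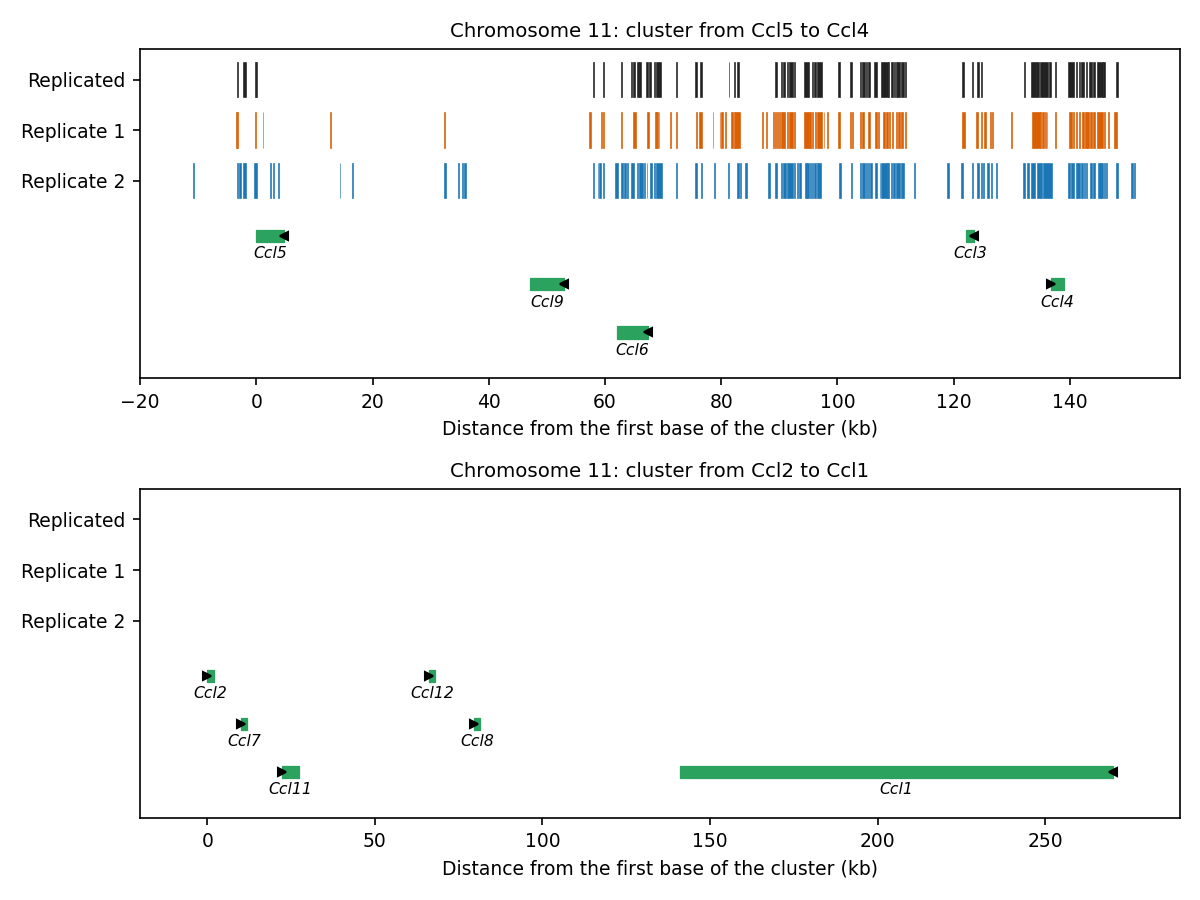
Peaks of the replicated list and of the own lists of replicate 1 and replicate 2 (rows of ticks) and the CC ligand genes (bars, with an arrowhead at the start in the direction of transcription) in the clusters from Ccl5 to Ccl4 (upper panel) and from Ccl2 to Ccl1 (lower panel) on chromosome 11, with distance from the first base of the cluster in kb on the x axis. Peaks crowd from Ccl6 to past Ccl4, with 53 replicated peaks in the upper cluster and 0 in the lower.

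The receptor cluster of chromosome 9 was near the level of its chromosome. Over the whole cluster peaks covered 1.12% in the replicated list, with 1.27% in replicate 1 and 1.38% in replicate 2, against 0.815%, 0.968% and 1.32% of chromosome 9. From Ccr9 to Ccr2 (chr9:123678439-124113557, 435119 bp, holding 7 genes) the share was 1.11% in the replicated list, with 1.31% in replicate 1 and 1.30% in replicate 2. Of tiled windows of that length on the chromosome, 18.0% were covered as much or more. What there was stood mostly in the annotated span of Ccr9. From Cxcr6 to Ccr2, leaving that span out, 1 replicated peak covered 0.126%, with 0.567% in replicate 1 and 0.286% in replicate 2. All were below the share of the chromosome in the same list. Of tiled windows of that length, however, only 38.7% were covered as much or more in the replicated list, and 53.0% held no replicated peak. A stretch with this little is thus common on the chromosome.

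Within that stretch the receptors of monocytes and granulocytes had little. Ccr2, the main receptor of Ccl2 on monocytes, and Cxcr6, the receptor of Cxcl16, had no peak within 5 kb or in the body in any list. Ccr1, its relative Ccr1l1 and the eosinophil receptor Ccr3 had none in the replicated list. In the own lists Ccr1 had 142 bp in replicate 1 and 208 bp in replicate 2 within 5 kb, Ccr1l1 had 154 bp and 375 bp, and Ccr3 had 194 bp in replicate 1 alone. The cluster of Cx3cr1 and Ccr8, also on chromosome 9, had no replicated peak, with 0.421% covered in replicate 1 and 0.826% in replicate 2.

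**Figure D4:**
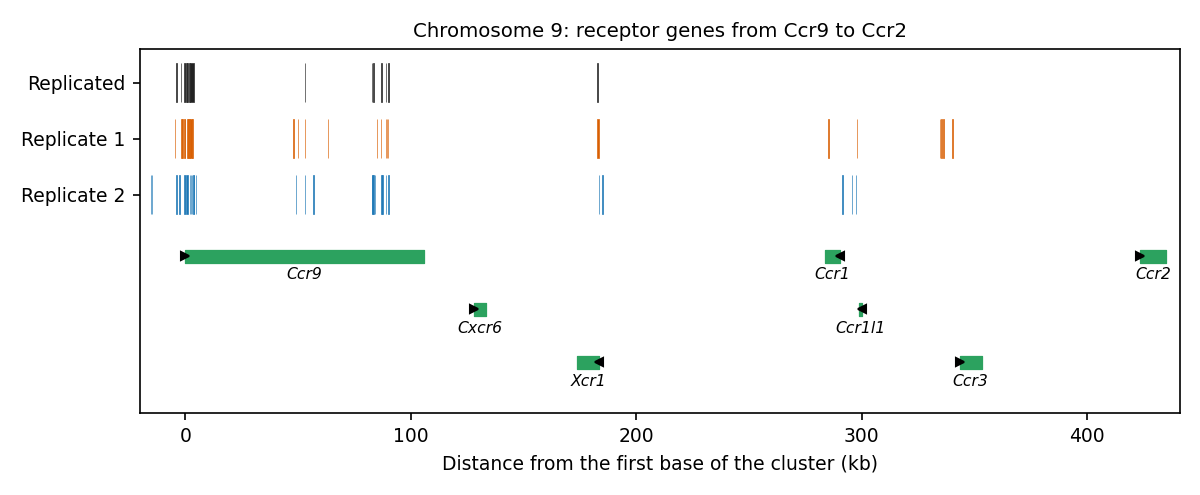
Peaks of the replicated list and of the own lists of replicate 1 and replicate 2 (rows of ticks) and the receptor genes (bars, with an arrowhead at the start in the direction of transcription) from Ccr9 to Ccr2 on chromosome 9, with distance from the first base of the cluster in kb on the x axis. Of the 12 replicated peaks from Ccr9 to Ccr2, all but 1 stand in the annotated span of Ccr9, with a dense group at its outermost start.

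The smaller clusters fell on either side of this range. Ccl22, Cx3cl1 and Ccl17 share a cluster of 66447 bp on chromosome 8 (chr8:94745590-94812036), covered over 6.75% in the replicated list, with 7.42% in replicate 1 and 8.12% in replicate 2, against 0.173%, 0.239% and 0.361% of that chromosome. Of tiled windows of its length on chromosome 8, 0.603% were covered as much or more, the lowest such share of the 10 clusters. Of its 13 replicated peaks 8 stood in and after Ccl22, in a joined domain of 8668 bp, and none came within 5 kb of Ccl17, the other ligand of Ccr4. On chromosome 5 the pair of interferon-induced ligands Cxcl9 and Cxcl10 (chr5:92321347-92348889) was covered over 5.83% in the replicated list, with 7.23% in replicate 1 and 7.78% in replicate 2, with 2.33% of tiled windows covered as much or more. Cxcl9 had peaks at the start, and Cxcl10 had none within 5 kb apart from 386 bp in replicate 2.

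The row from Cxcl5 to Cxcl2 on chromosome 5 (chr5:90759360-90905938) holds Cxcl5, Pf4, Cxcl3, Cxcl15, Cxcl1 and Cxcl2. It was covered over 1.92% in the replicated list, with 2.84% in replicate 1 and 3.75% in replicate 2, against 0.465%, 0.550% and 0.810% of chromosome 5, and 5.74% of tiled windows were covered as much or more. The side of Cxcl1 and Cxcl2 held most of the peaks, and replicated peaks covered no base from Cxcl5 to Cxcl3. The cluster of Ccl27a, Ccl21b, Ccl27b, Ccl19 and Ccl21a on chromosome 4 and the pair of Ccl26 and Ccl24 on chromosome 5 held no peak in any list. The pair of Cxcr2 and Cxcr1 had 0.458% covered in replicate 2 alone among the 3 lists.

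**Figure D5:**
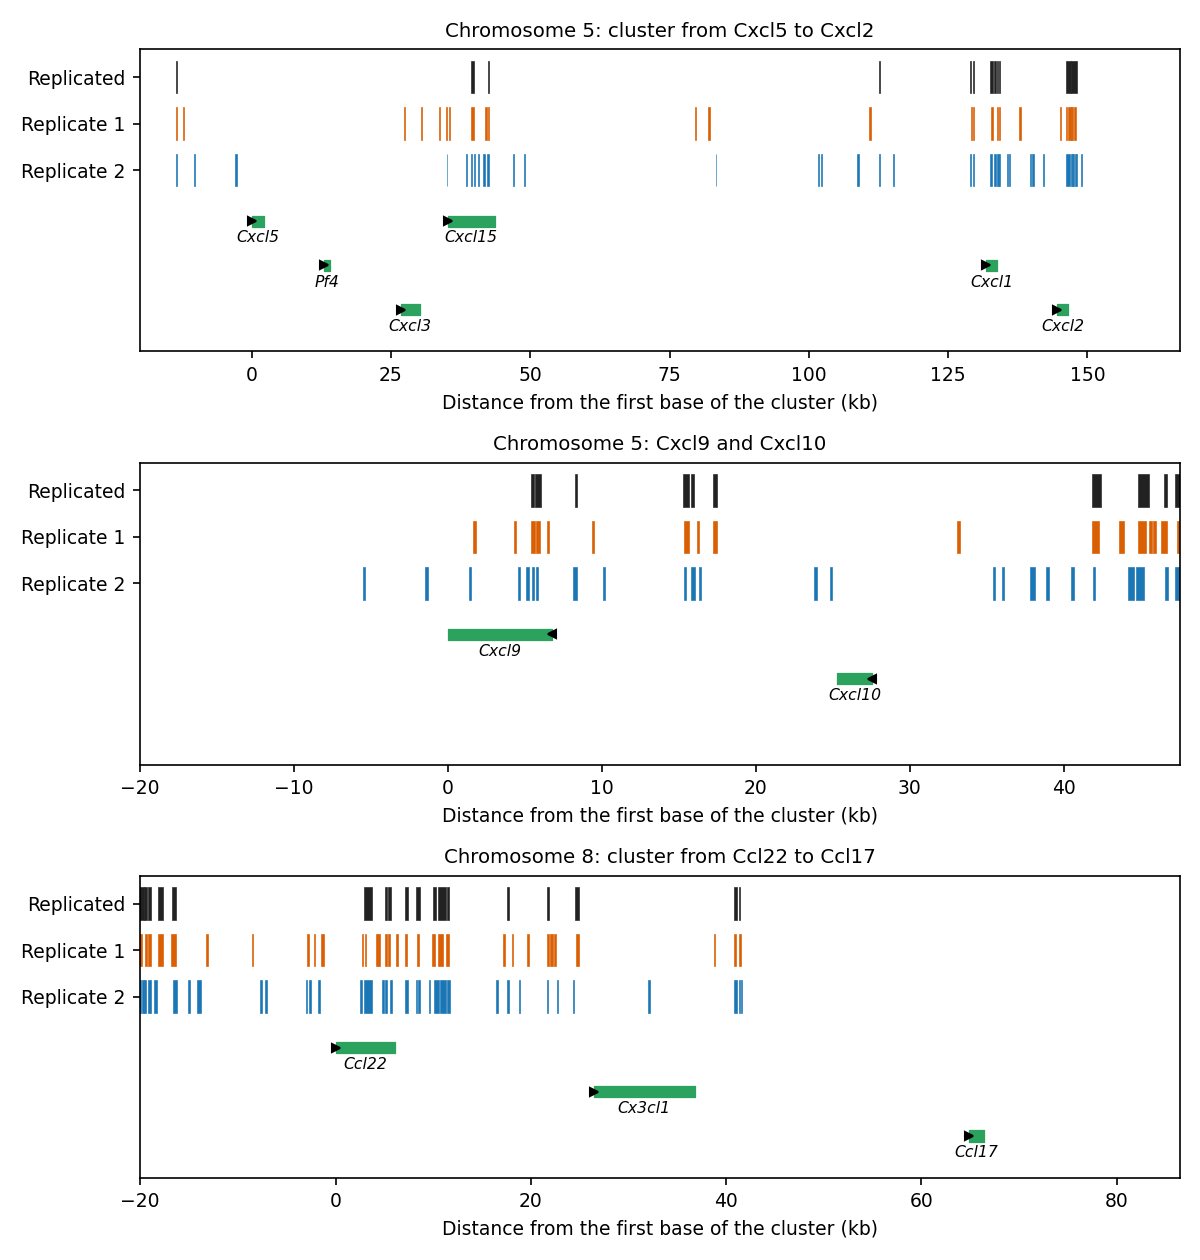
Peaks of the replicated list and of the own lists of replicate 1 and replicate 2 (rows of ticks) and the ligand genes (bars, with an arrowhead at the start in the direction of transcription) in the clusters from Cxcl5 to Cxcl2 and from Cxcl9 to Cxcl10 on chromosome 5 and from Ccl22 to Ccl17 on chromosome 8, with distance from the first base of each cluster in kb on the x axis. Peaks stand at Cxcl15, Cxcl1, Cxcl2, Cxcl9 and Ccl22 in all 3 lists, and Pf4 and Ccl17 have none within 5 kb.

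Joined within 3 kb, the replicated peaks at the chemokine and receptor genes formed 22 domains with a median length of 3199 bp, against 534 bp over all 14456 domains. Of the 22 domains 2 were 10 kb or longer, those over Ccl4 and Ccl6, against 504 of all 14456 domains. A long domain is more likely to reach a gene or its surroundings than a short one. The 22 were picked for doing so, and their lengths are therefore not a like-for-like comparison with all domains. The domain over Ccl6 measured 14458 bp, with 25.7% covered in the replicated list, with 18.8% in replicate 1 and 36.8% in replicate 2. Joining bridges gaps of uncovered bases, so the length of a domain is not a covered length.

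Genes that act beside the receptors were counted in the same way, in lists too short for small counts to be read as a lack of the mark. Of 7 atypical receptors and related genes, among them the scavenging receptors Ackr1 to Ackr4, 0 had a replicated peak at the start, within 5 kb or in the body. Of 38 genes that carry the signal inside the cell, 0 had one within 1 kb, 2 within 5 kb and 2 in the body. Of all protein-coding genes 3.0%, 10.4% and 11.5% had a replicated peak by these measures. Pik3r6, a regulatory subunit of phosphoinositide 3-kinase gamma, had 675 bp in the body, and Ptk2b, a focal adhesion kinase, had 151 bp within 5 kb.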

How the data were processed

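H3K27me3 was mapped in 2 biological replicates of the MEL line, numbered by the labels. Per the text descriptions deposited with each sample, the authors called peaks for each replicate on its own mm10 alignments against 1 shared control, and on both replicates together (the pooled list), and derived the replicated list from those calls. Not given in the sources used here are the aligner, the peak caller and the rule for keeping a peak. For each peak the authors deposited a signal value (a score whose definition is not stated) and the −log10 of the p-value and of the q-value. The signal values and q-values were used here to filter peaks within a list, and the q-values also to describe them. The p-values were not used. An mm9 list was not used here. Genes came from GENCODE mouse release 21 on GRCm38, the build that mm10 names, and of genes sharing a symbol the longest was used. Promoter sequences came from RefSeq, GRCm38.p6.

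Covered bases were counted on the union of each list's peaks on chromosomes 1 to 19, X and Y, and an overlap of 1 bp counted. Windows of 1 kb and 5 kb on either side of the outermost start, gene bodies and clusters (gaps of at most 500 kb) were used, with tiled windows every 10 kb. With 1 group no test between groups exists, and shares are descriptions beside all protein-coding genes. The members and lists were chosen with earlier results of these data known. Named are the members with a replicated peak within 5 kb or in the body, those with a peak within 1 kb of the start in either own list, and the members of the chromosome 11 and chromosome 9 clusters. Of the other pathway genes, those with a replicated peak at the start or in the body were to be named; Ptk2b, with a peak within 5 kb alone, was added after its value was seen. The alternatives were the pooled list, each own list, a −log10 q of 2 or more, the upper 50% by signal value, 2.5 kb around the start, any annotated start, 200 bp covered, and peaks joined within 3 kb. A few of the genes selected this way are left unreported. Python 3.11.15, numpy 2.4.6 and matplotlib 3.10.9 were used, and the interval code was tested on simulated data.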

Additional observations from a re-analysis of the deposited data

How the results depend on the processing

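Of 56 alternatives over 9 results, 33 kept the value within 1.5 times for a count, or within 1 SD between the replicates for a share, and 23 did not; among counts and shares above 0 the stricter peak threshold moved each one. With a −log10 q of 2 or more, the genes with a peak within 1 kb of the start numbered 1 in place of 9, within 5 kb 5 in place of 15, and in the body 2 in place of 14 (0 ligand and 2 receptor genes in place of 9 and 5). The mean share of the body covered became 0.0874%, the Ccl5 to Ccl4 cluster 3.83% and the whole receptor cluster of chromosome 9 0.139%. The upper 50% of peaks by signal value gave 3 receptor genes with a peak in the body, a mean share of 2.34%, and 8.75% and 0.542% for these clusters. Joining peaks within 3 kb gave 9.88%, 36.3% and 2.11%, because gaps are then counted as covered. With 1 replicate left out, the other's own list gave 11 to 13 genes with a peak at the start, 23 within 5 kb and 18 in the body (9 to 10 ligand and 8 to 9 receptor genes), a mean share of 2.93% to 4.20%, and 14.4% to 18.3% and 1.27% to 1.38% for the clusters. The pooled list gave 1.27% for the receptor cluster of chromosome 9. The Ccl2 to Ccl1 cluster was at 0% under every alternative. Those that filter or join the replicated list, which is empty there, could give no other value, though they count among the 33. Most peaks are weak, the depth is unknown, and both replicates share 1 control, so a gene without a peak may carry the mark below what was called. No paired analysis was possible because the samples form 1 group.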

Other observations

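Set beside each other by ligand and receptor, a grouping made after the values were seen, the replicated peaks stood on 1 side of each pair given here. Ccr7 had 3869 bp of replicated peaks within 5 kb of its start, and its ligands Ccl19 and Ccl21a had 0 bp. Ccr6 had 734 bp and its ligand Ccl20 had 0 bp, Ccr9 had 826 bp at its RefSeq start and its ligand Ccl25 had 0 bp, and Xcr1 had 386 bp and its ligand Xcl1 had 0 bp. In the other direction, Cxcl1 had 1618 bp and Cxcl2 had 1885 bp with 0 bp at their receptor Cxcr2, Cxcl9 had 767 bp with 0 bp at Cxcr3, Cxcl16 had 1072 bp with 0 bp at Cxcr6, Ccl22 had 748 bp with 0 bp at Ccr4, and Cx3cl1 had 586 bp with 0 bp at Cx3cr1. In the own lists Ccr4 had 170 bp in replicate 2 and Cx3cr1 had 140 bp in replicate 1, so these pairs held peaks on both sides there. The pairs were grouped with the values known, so the pattern of peaks on 1 side can follow from the choice of pairs. Only 15 of the 57 genes had a replicated peak within 5 kb, so a gene with peaks will mostly face a partner at 0 bp. The pairs given here are not all pairs of the family. Ccl17 and its receptor Ccr4 were both at 0 bp in the replicated list. Within 5 kb of the start, 4 of the 19 receptor genes had replicated peaks, Ccr7, Ccr6, Ccr9 and Xcr1. Their ligands given here had 0 bp. These are values of 1 cell line, and whether such pairs differ from other pairs of genes was not tested.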
